A study of Mus musculus with 6 samples.

Results

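Imprinted genes are transcribed mainly from the copy of 1 parent, and the 10 described here, H19, Igf2, Igf2r, Dlk1, Meg3, Peg3, Mest, Plagl1, Cdkn1c and Grb10, are those best known for setting growth before and shortly after birth. They were taken by symbol from a table of 44556 genes counted in the parietal bone, a flat bone of the skull vault, of newborn C57BL/6 mice. Parietal bone from 3 OsxCre mice was compared with that from 3 OsxCre;Stat3fl/fl littermates. Both groups carried Cre recombinase under the Osx promoter, which is active in osteoblast precursors, so the OsxCre littermates share any effect of the transgene. In OsxCre;Stat3fl/fl mice both Stat3 alleles had exons flanked by loxP sites, and Stat3, a transcription factor of the JAK-STAT pathway, was to be deleted mainly in osteoblast precursors and the cells that come from them. Where deletion took place was not measured in these libraries, which also hold RNA of other cells of the tissue. In bulk tissue of this kind, fewer cells of a type and less RNA per cell cannot be told apart.

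IGF2 is a growth factor of the fetus that signals through the receptors IGF1R and INSR, while IGF2R carries it to the lysosome for breakdown. Paternally expressed genes such as Igf2, Dlk1, Peg3, Mest and Plagl1 tend to promote growth or supply, and maternally expressed genes such as H19, Igf2r, Cdkn1c and Grb10 tend to restrain it. Many of these genes are high in fetal mesenchyme, muscle and cartilage and are turned down in the weeks after birth.

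The counts on genes summed to between 8193651 and 12080044 per library, and every OsxCre;Stat3fl/fl library was shallower than every OsxCre library. Levels are given as CPM, the counts of a gene brought to a common library size by TMM, a scaling that sets the bulk of genes equal between libraries. Stat3 itself had 149, 134 and 141 CPM in OsxCre and 152, 154 and 155 CPM in OsxCre;Stat3fl/fl (log2 fold change 0.12, standard error 0.07, adjusted p = 0.442, edgeR). Counts of the targeted gene were thus no lower where the label gives the floxed genotype. Reads per exon were not analysed here. The study describes male newborns, yet each library held between 7333 and 12392 counts of Xist and at most 2 counts over 4 Y-linked genes. Osteoblast markers were abundant in all 6 libraries, at a summed 13295 to 19292 CPM over 10 genes, and muscle fibre markers summed to 33182 to 57474 CPM over 12 genes. The defining epidermal keratins Krt5 and Krt14 lay between 0 and 2.87 CPM.

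Imprinted loci often hold microRNAs inside the long RNA, and the counts listed those precursors as genes of their own. The sequences of the microRNAs inside H19, Meg3, Igf2 and Mest are shown because their rows ranged from among the fuller ones of the table to nearly empty. The letters come from RefSeq on GRCm38.p6, and capitals mark the seed, bases 2 to 8, by which a microRNA finds its targets.
mmu-miR-675-5p in H19: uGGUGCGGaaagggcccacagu
mmu-miR-675-3p in H19: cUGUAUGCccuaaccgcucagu
mmu-miR-1906 in Meg3: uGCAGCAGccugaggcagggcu
mmu-miR-483-5p in Igf2: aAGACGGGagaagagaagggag
mmu-miR-335-5p in Mest: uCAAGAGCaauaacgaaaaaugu
These 5 microRNAs have different seeds. The precursor of miR-675 lies in the minus strand of chromosome 7, at chr7:142577064-142577147, within H19. Its hairpin of 84 bases is printed with both mature arms in capitals.
Mir675: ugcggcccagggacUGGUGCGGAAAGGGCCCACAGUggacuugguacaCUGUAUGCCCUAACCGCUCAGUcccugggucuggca

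H19 and Igf2 were among the strongest transcripts of the newborn parietal bone. Together the 10 members took between 3.16% and 3.67% of all counts in a library, of which H19 and Igf2 held between 2.69% and 3.12%. H19, a long non-coding RNA, ranked 2 or 3 by counts in every library among 28016 genes with a count, and Igf2 ranked 7 or 8. Mest stood lowest of the members by counts, at ranks 1666 to 3669. Levels of different genes were compared as CPM per kb of the longest transcript, on library totals, over 19465 genes with a length and a count. On that scale H19 stood at 8650 ± 493 (SD, n = 6 libraries), rank 4 of all genes, and Igf2 at 2011 ± 132, rank 17. Cdkn1c, at 382 to 489 CPM per kb, Dlk1, at 240 to 335, and Grb10, at 173 to 226, came next, and none of these first 5 members overlapped a neighbour in the order. Plagl1 had 47.9 to 82.9 CPM per kb and overlapped Meg3, with 41.4 to 53.3. Below them Igf2r had 34.8 to 40.8, Mest 22.6 to 40.8 and Peg3 21.8 to 32.8 CPM per kb, and each overlapped the next. Even Peg3, the lowest, ranked 2588 of 19465. With the merged exons of each gene in place of its longest transcript, the order of the 10 was unchanged.

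**Figure D1:**
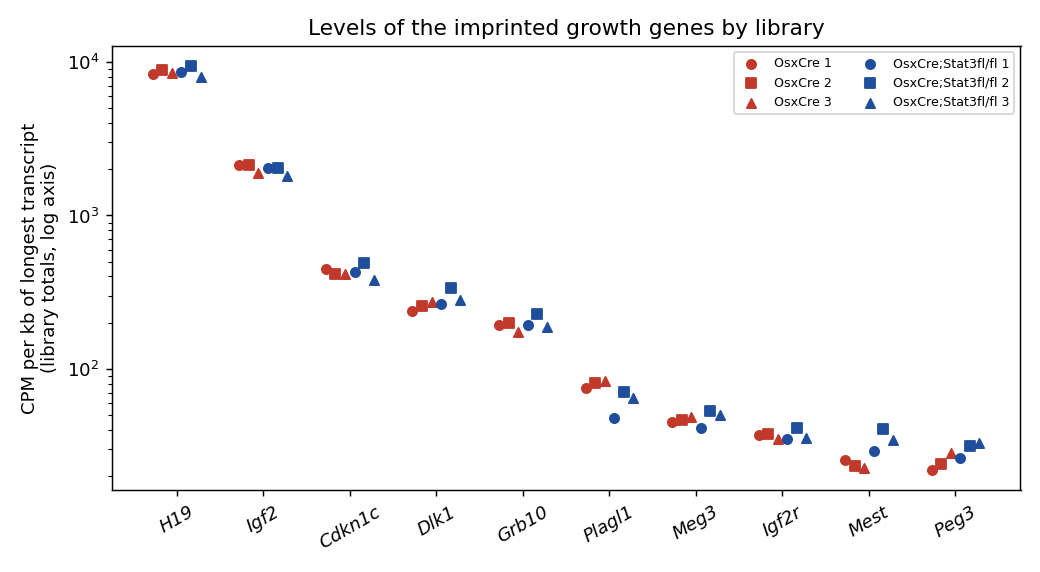
Level of each imprinted growth gene in each library, as CPM per kb of the longest transcript on a log axis, with OsxCre libraries in red and OsxCre;Stat3fl/fl libraries in blue. H19 lay at 8017 to 9428 in all 6 libraries and Peg3 at 21.8 to 32.8.

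Between the genotypes, none of the 10 members passed an adjusted p of 0.05 in edgeR's quasi-likelihood test, whose p-values were adjusted by Benjamini-Hochberg over all 15600 genes tested. In that fit 1.26% of all genes tested were called, 0.776% higher and 0.481% lower in OsxCre;Stat3fl/fl. At an unadjusted p under 0.05, 2 members, Mest and Peg3, were higher and 0 were lower, where 8.03% of all genes were higher and 8.34% lower. By the DESeq2 Wald test the counts of members at an adjusted p under 0.05 were 1 higher, Mest, and 0 lower, where DESeq2 called 3.52% of all genes, 2.01% higher and 1.51% lower. By limma-voom both counts of members were 0. The log2 fold change, OsxCre;Stat3fl/fl over OsxCre, was positive for 8 members and negative for Igf2 and Plagl1 under TMM, whereas without any scaling for depth it was positive for Mest alone. The median over the members was 0.09, against -0.00 over all genes tested, of which 7687 were positive. The groups did not overlap for 1 member, Mest, where 23% of all genes tested had no overlap. The mice are described as 3 animals per genotype, and the p-values measure the spread between these libraries, of which an exact permutation test can give no p below 0.1.

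**Figure D2:**
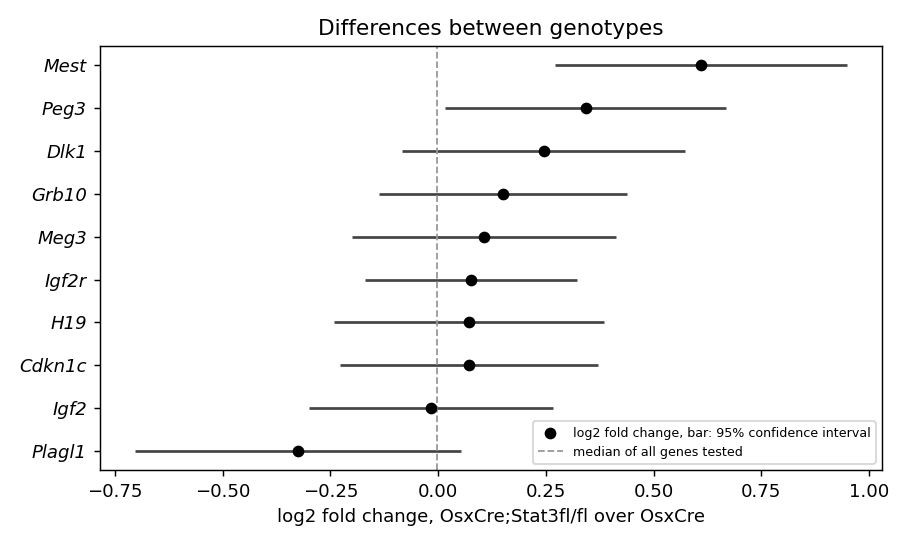
Log2 fold change of each member, OsxCre;Stat3fl/fl over OsxCre, from the fit over all genes on TMM-scaled libraries, with its 95% confidence interval (n = 3 libraries per genotype). The dashed line is the median of all genes tested, and only the intervals of Mest and Peg3 lay wholly above 0.

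Igf2, the growth factor, had the log2 fold change nearest to 0. It had 9993, 9618 and 9045 CPM in OsxCre and 9446, 10345 and 8546 CPM in OsxCre;Stat3fl/fl. The OsxCre;Stat3fl/fl libraries held both the highest and the lowest value, so the groups overlapped. Its log2 fold change, -0.02 (standard error 0.12, adjusted p = 0.970), had a 95% confidence interval of -0.30 to 0.27, which corresponds to folds of 0.812 to 1.20. The Igf2 gene spans chr7:142650768-142666816 on GRCm38.p6.

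H19, at chr7:142575530-142578146, lies 72.6 kb from Igf2 and shares its enhancers and imprinting control region, with H19 read from the maternal and Igf2 from the paternal copy. It had 18808, 19585 and 19542 CPM in OsxCre and 19499, 23111 and 18279 CPM in OsxCre;Stat3fl/fl. Library 2 of OsxCre;Stat3fl/fl was the highest and library 3 the lowest of all 6. As a log2 fold change this was 0.07 (standard error 0.14, 95% interval -0.24 to 0.38, adjusted p = 0.848). The ratio of H19 to Igf2 counts, in which depth cancels, was 1.88, 2.04 and 2.16 in OsxCre and 2.06, 2.23 and 2.14 in OsxCre;Stat3fl/fl (exact permutation test, two-sided, p = 0.3, adjusted p = 0.4 over the 8 ratios computed). The OsxCre;Stat3fl/fl ratios lay in a narrower band inside and just above the OsxCre range.

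The row of Mir675, the precursor inside H19, held 28679, 26863 and 33845 counts in OsxCre and 24037, 31256 and 26744 in OsxCre;Stat3fl/fl. That is between 136 and 171 counts per 1000 counts of H19. The libraries were made from long polyadenylated RNA, so these are reads lying over the hairpin, not mature miR-675. In CPM the row stood at 2722, 2656 and 2833 in OsxCre and at 2879, 3821 and 3119 in OsxCre;Stat3fl/fl, with every OsxCre;Stat3fl/fl library above every OsxCre library. For this row the log2 fold change was 0.26 (standard error 0.13, 95% interval -0.04 to 0.56, adjusted p = 0.366). Adding the counts of the microRNA rows to their host genes gave H19 a log2 fold change of 0.10 (adjusted p = 0.788).

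The other microRNA rows were fuller in Meg3 than in Igf2 or Mest. Mir1906-1, inside Meg3, held between 1277 and 2275 counts, or 227 to 274 per 1000 counts of Meg3, with a log2 fold change of -0.04 (adjusted p = 0.890). Mir483, inside Igf2, held 30, 22 and 25 counts in OsxCre and 33, 30 and 38 in OsxCre;Stat3fl/fl. After scaling these were 2.18 to 4.43 CPM over all libraries and did not overlap between genotypes (log2 fold change 0.76, standard error 0.24, adjusted p = 0.171). Mir335, inside Mest, held at most 2 counts in any library, fewer than the 3 counts taken as the least a library can show, and Mir770, inside Meg3, held 5 to 19. The microRNA rows were chosen after their values were seen. The strand setting of the counting is not given in the sources used here and the kit does not mark strand, so reads of overlapping genes cannot be told apart.

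Igf2r, the receptor that clears IGF2, spans chr17:12682406-12769706. It had 324, 321 and 312 CPM in OsxCre and 304, 389 and 315 CPM in OsxCre;Stat3fl/fl. The 3 OsxCre libraries had a coefficient of variation of 1.88%, the smallest of any member. Library 1 of OsxCre;Stat3fl/fl lay below them, library 2 above them and library 3 inside their range. Between genotypes Igf2r had a log2 fold change of 0.08 (standard error 0.11, 95% interval -0.17 to 0.32, adjusted p = 0.785). The ratio of Igf2 to Igf2r counts ran from 29.0 to 30.9 in OsxCre and from 26.6 to 31.0 in OsxCre;Stat3fl/fl (exact permutation test, p = 0.4, adjusted p = 0.457). Airn, the antisense RNA that silences the paternal Igf2r copy, had 6.59 to 12.1 CPM over the 6 libraries (log2 fold change -0.21, adjusted p = 0.686).

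Dlk1, a membrane protein of the Notch ligand family that holds back differentiation, and Meg3, a maternally expressed long non-coding RNA, lie 77.7 kb apart on chromosome 12, at chr12:109452485-109463336 and chr12:109540996-109571729. Dlk1 had 1098, 1141 and 1283 CPM in OsxCre and 1204, 1673 and 1297 CPM in OsxCre;Stat3fl/fl. Libraries 2 and 3 of OsxCre;Stat3fl/fl lay above all OsxCre libraries, and library 1 lay among them. Its log2 fold change of 0.24 (standard error 0.14, 95% interval -0.08 to 0.57) had an adjusted p of 0.441. Meg3 had 640, 643 and 709 CPM in OsxCre and 591, 831 and 724 CPM in OsxCre;Stat3fl/fl, with the lowest and the highest value both in OsxCre;Stat3fl/fl. For Meg3 the log2 fold change came to 0.11 (standard error 0.13, 95% interval -0.20 to 0.41, adjusted p = 0.754). The ratio of Dlk1 to Meg3 counts was 1.72, 1.77 and 1.81 in OsxCre and 2.04, 2.01 and 1.79 in OsxCre;Stat3fl/fl (exact permutation test, p = 0.2, adjusted p = 0.32). Library 3 of OsxCre;Stat3fl/fl fell within the OsxCre range of this ratio and libraries 1 and 2 lay above it.

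Cdkn1c, the cyclin-dependent kinase inhibitor p57, lies 792 kb from Igf2, at chr7:143458339-143461059. It had 856, 773 and 813 CPM in OsxCre and 816, 1013 and 736 CPM in OsxCre;Stat3fl/fl. The OsxCre;Stat3fl/fl libraries again held both extremes, and the log2 fold change was 0.07 (standard error 0.13, 95% interval -0.23 to 0.37, adjusted p = 0.843). Per 1000 counts of H19, Cdkn1c had 42.2 ± 3.05 counts in OsxCre and 42.0 ± 1.80 in OsxCre;Stat3fl/fl (SD, n = 3 each). Grb10, an adaptor that restrains signalling from the insulin and IGF receptors, shares chromosome 11 with Stat3 but lies 88849 kb away, at chr11:11930499-12037428. It had 968, 958 and 885 CPM in OsxCre and 952, 1227 and 942 CPM in OsxCre;Stat3fl/fl, where library 2 stood above the rest and the other two lay within the OsxCre range. This gave a log2 fold change of 0.15 (standard error 0.12, 95% interval -0.14 to 0.44, adjusted p = 0.604).

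Mest, a paternally expressed membrane protein of the alpha/beta hydrolase fold, showed the largest fold among the members. It had 63.7, 56.5 and 58.3 CPM in OsxCre and 73.3, 111 and 87.4 CPM in OsxCre;Stat3fl/fl, with means of 59.5 ± 3.76 and 90.7 ± 19.3 CPM (SD, n = 3 each). Every OsxCre;Stat3fl/fl library lay above every OsxCre library. The log2 fold change was 0.61 (standard error 0.15, 95% interval 0.27 to 0.95), a fold of 1.53, with p = 0.00332 and adjusted p = 0.102 in edgeR's test, and p = 0.1 in the exact permutation test, the smallest it can give. Mest did not pass the adjusted threshold in that fit, and it passed under DESeq2 (adjusted p = 0.00643), which called more genes of the whole table, and in edgeR without the filter on low counts (adjusted p = 0.0256). Without library 2 of OsxCre;Stat3fl/fl the log2 fold change was 0.44 (adjusted p = 0.139). Per 1000 counts of H19, Mest had 3.39, 2.88 and 2.98 counts in OsxCre and 3.76, 4.82 and 4.78 in OsxCre;Stat3fl/fl (exact permutation test, p = 0.1, adjusted p = 0.32).

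Among the genes beside Mest, at chr6:30733506-30748466, Copg2, a coat protein gene whose end overlaps it, had 46.9, 44.8 and 45.4 CPM in OsxCre and 46.8, 56.5 and 48.4 CPM in OsxCre;Stat3fl/fl (log2 fold change 0.15, adjusted p = 0.476). The imprinted transcription factor gene Klf14 had 12.1, 12.2 and 10.7 CPM and 14.1, 16.0 and 13.4 CPM (log2 fold change 0.31, adjusted p = 0.299), without overlap. Cep41, a centrosomal protein gene, lay at 20.4 to 24.8 CPM in all libraries. None of the 4 neighbours of Mest that were tested passed an adjusted p of 0.05, and Klf14 was the 1 that passed unadjusted. Of all genes tested, 8.03% were higher at an unadjusted p under 0.05 and 10.8% were higher without overlap.

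A table of RefSeq promoters on GRCm38.p6 matched 15 start sites of 8 members, all but H19 and Cdkn1c. The motif TTCNNNGAA, the core to which STAT factors bind, was searched on both strands from 250 bases before to 50 after each start. It occurred in 0 of these 15 windows and in 8.30% of the 32851 promoters of the same length in the table. So few windows cannot tell 0 from that share. Some also cover nearly the same bases, as do those of Mest starting at 30737800 and 30737803. CpG pairs, at which imprinted genes carry their parental methylation, numbered 1 to 45 per window with a median of 13, against a median of 7 over all promoters. The 250 bases before a start of Mest are shown with CpG pairs in capitals, since Mest was the member whose groups did not overlap.
Mest promoter, chr6:30737800-30738049, plus strand: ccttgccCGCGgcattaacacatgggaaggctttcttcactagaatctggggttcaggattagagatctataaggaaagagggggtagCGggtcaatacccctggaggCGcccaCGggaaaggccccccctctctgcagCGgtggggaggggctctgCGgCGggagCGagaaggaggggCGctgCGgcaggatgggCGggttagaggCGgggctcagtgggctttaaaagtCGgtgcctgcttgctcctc
Neither methylation nor binding was measured in these libraries.

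Peg3, a zinc finger protein gene at chr7:6703892-6730462, was the other member past an unadjusted p of 0.05. It had 186, 198 and 247 CPM in OsxCre and 224, 293 and 284 CPM in OsxCre;Stat3fl/fl. Libraries 2 and 3 of OsxCre;Stat3fl/fl lay above all OsxCre libraries, while library 1 lay below OsxCre library 3, so the groups overlapped. This gave Peg3 a log2 fold change of 0.34 (standard error 0.14, 95% interval 0.02 to 0.67, adjusted p = 0.281). It no longer passed the unadjusted threshold without OsxCre library 1 (0.27) or 2 (0.30), or without OsxCre;Stat3fl/fl library 2 (0.28) or 3 (0.30). Zim1, the maternally expressed zinc finger gene beside Peg3, had 318 to 342 CPM in OsxCre and 303 to 391 CPM in OsxCre;Stat3fl/fl (log2 fold change 0.12, adjusted p = 0.658). Usp29, which is read from the paternal copy like Peg3, lay between 1.09 and 4.08 CPM (log2 fold change 0.76, adjusted p = 0.387).

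Plagl1, a zinc finger transcription factor known to act on other imprinted genes, had the lowest log2 fold change of the members. It had 390, 405 and 441 CPM in OsxCre and 247, 399 and 340 CPM in OsxCre;Stat3fl/fl. Libraries 1 and 3 of OsxCre;Stat3fl/fl lay below all OsxCre libraries, and library 2 lay inside their range. The fitted log2 fold change, -0.32, did not pass (edgeR, standard error 0.16, 95% interval -0.70 to 0.05, adjusted p = 0.370). Without library 2 it was -0.48 (adjusted p = 0.201) and passed the unadjusted threshold, and without library 1 it was -0.16. Per 1000 counts of H19 the groups were apart, with 20.7, 20.7 and 22.6 counts of Plagl1 in OsxCre and 12.7, 17.3 and 18.6 in OsxCre;Stat3fl/fl (exact permutation test, p = 0.1, adjusted p = 0.32). Of the 4 genes tested beside it at chr10:13090832-13131694, Utrn, the gene of the cytoskeletal protein utrophin, was higher at an unadjusted p (log2 fold change 0.23, adjusted p = 0.269). Among all genes tested 8.03% were. The others, Phactr2, Sf3b5 and Stx11, did not pass it.

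The highest values of most members came from 1 library. Library 2 of OsxCre;Stat3fl/fl held the highest CPM of 9 of the 10, all but Plagl1, whereas it was highest for 18.8% of all genes tested and for 27.7% of the 2646 genes at least as abundant as the lowest member. On library totals without TMM it was highest for 7 of the 10 and for 8.65% of all genes tested. Without this library the log2 fold changes of H19, Igf2r, Meg3 and Cdkn1c were -0.02, -0.03, -0.01 and -0.06, those of Dlk1 and Grb10 were 0.10 and 0.02, and that of Igf2 was -0.08. The coefficient of variation of the members ran from 9.52% to 23.3% among OsxCre;Stat3fl/fl libraries and from 1.88% to 15.3% among OsxCre libraries.

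The same library also had the highest sums of muscle fibre, myoblast, mesenchyme, endothelium and macrophage markers. Its neural sum, 56.2 CPM, was the lowest of all libraries. Cartilage markers summed to 1827 to 3130 CPM in OsxCre and to 3530, 2769 and 3288 CPM in OsxCre;Stat3fl/fl libraries 1, 2 and 3. Mesenchyme markers summed to 9704 to 11951 CPM in OsxCre and to 10290, 13116 and 11852 CPM in OsxCre;Stat3fl/fl libraries 1, 2 and 3. For endothelium markers the sums were 527 to 746 CPM in OsxCre and 661, 777 and 727 CPM in OsxCre;Stat3fl/fl. Summed muscle fibre markers stood at 33182 to 36098 CPM in OsxCre and at 45759, 57474 and 38392 CPM in OsxCre;Stat3fl/fl libraries 1, 2 and 3, without overlap. Of the 12 markers, 7 were higher and 2 lower at an unadjusted p under 0.05, where 8.03% and 8.34% of all genes tested were. Myh3, the embryonic myosin, was higher and Myh4, an adult fast myosin, lower at an adjusted p under 0.05. Myoblast markers, a list of 6 with Pax7 and Myod1, summed to 194 to 206 CPM in OsxCre and to 215, 296 and 187 CPM in OsxCre;Stat3fl/fl, again highest in library 2. Myog, the most abundant of them, had 147 CPM in that library and 88.2 to 104 CPM in the rest. Pax7 was not highest there, with 9.90 CPM against 8.83 to 12.2 CPM in OsxCre. Osteoblast markers summed to 14323 to 19292 CPM in OsxCre and 13295 to 16920 CPM in OsxCre;Stat3fl/fl, which overlapped. Of the 10, 3 were lower at an unadjusted p under 0.05, all 3 without overlap, and 0 were higher. Of all genes tested, 8.34% were lower at that p and 12.2% were lower without overlap. Among them Ibsp, bone sialoprotein, was lower at an adjusted p under 0.05, with 1014, 1058 and 929 CPM in OsxCre and 609, 662 and 625 CPM in OsxCre;Stat3fl/fl (log2 fold change -0.66, adjusted p = 0.0213). Adipocyte and neural markers varied widely within both genotypes, from 520 to 1938 CPM and from 56.2 to 470 CPM. Macrophage markers were at 336 to 349 CPM in OsxCre and 351 to 368 CPM in OsxCre;Stat3fl/fl, and epidermal markers at 7.53 to 11.9 and 12.2 to 14.4 CPM, each sum without overlap. Of the 6 macrophage markers 4 had a positive and 2 a negative log2 fold change. Cd68 alone did not overlap, where 23% of all genes tested did not. Only 2 of the 6 epidermal markers were tested, and they went opposite ways. These were Dsp (log2 fold change 0.57, adjusted p = 0.219, edgeR) and Krt10 (-0.40, adjusted p = 0.586). The part of muscle, mesenchyme, cartilage, endothelium, macrophage, neural or epidermal RNA in the values of the members was not tested.

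**Figure D3:**
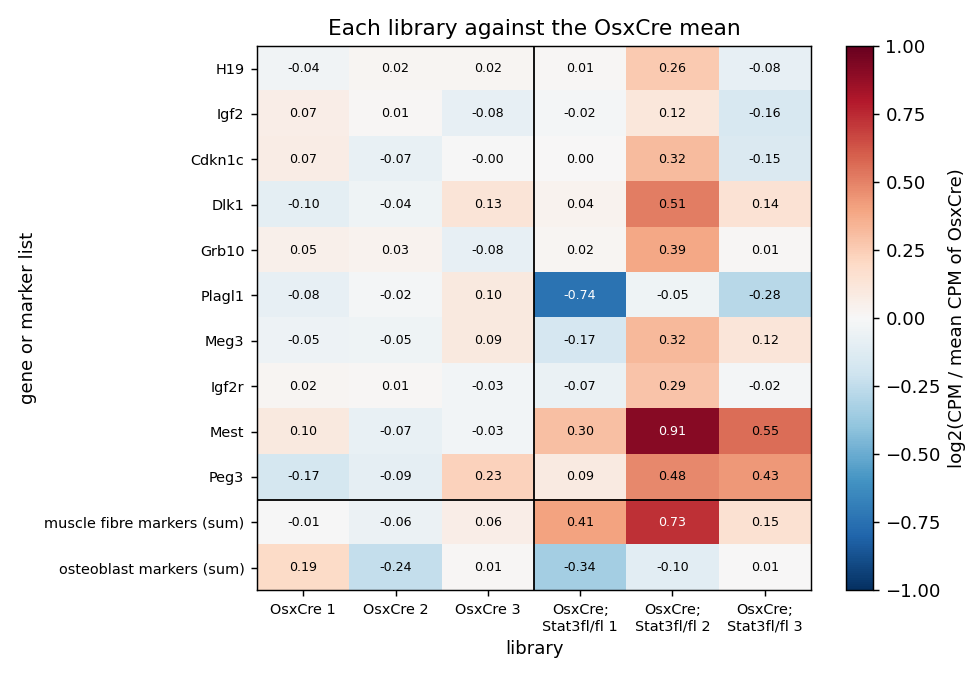
Each cell gives log2 of a gene's TMM-scaled CPM in 1 library over its mean in the 3 OsxCre libraries, for the 10 members and, below the line, for the summed muscle fibre and osteoblast markers. Library 2 of OsxCre;Stat3fl/fl was the highest for every member but Plagl1, reaching 0.91 for Mest, and had 0.73 for muscle fibre markers.

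The genes that handle IGF2 outside its own locus were counted from a list of 19, of which 18 were tested. None passed an adjusted p of 0.05 in edgeR's test, in DESeq2 or in limma-voom. At an unadjusted p under 0.05 in edgeR, 4 were higher and 0 lower, where 8.03% and 8.34% of all genes tested were. The median of their log2 fold changes was 0.02. The most abundant were binding proteins that hold IGFs in the tissue. Igfbp5 had 1517 to 1908 CPM in OsxCre and 1414 to 1858 in OsxCre;Stat3fl/fl (log2 fold change -0.10, adjusted p = 0.788), and Igfbp4 had 1051 to 1098 and 1037 to 1134 CPM (0.01, adjusted p = 0.978). Igfbp3 had 439, 360 and 366 CPM in OsxCre and 411, 520 and 548 CPM in OsxCre;Stat3fl/fl (0.34, adjusted p = 0.259), with library 1 inside the OsxCre range. Igfbp2, at 415 to 557 and 515 to 602 CPM, overlapped (0.20, adjusted p = 0.472). Pappa, a protease that frees IGFs by cutting binding proteins, had 7.40, 7.22 and 7.53 CPM in OsxCre and 9.34, 9.41 and 14.3 CPM in OsxCre;Stat3fl/fl (0.58, adjusted p = 0.214), without overlap. Igf1r, one of the receptors through which IGF2 signals, was counted at 0.89 to 3.71 CPM, while Insr, the other, lay at 92.7 to 109 CPM. Igf1r and Igfbp6 were the remaining genes with a higher value at an unadjusted p (log2 fold changes 0.87 and 0.42, adjusted p = 0.299 and 0.272, edgeR).

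Among 62 other imprinted genes listed, 60 were in the table and 56 were tested. None passed an adjusted p of 0.05 in edgeR's test or in limma-voom, while DESeq2 called 1 lower and 1 higher of the 56, against 1.51% and 2.01% of all genes. At an unadjusted p under 0.05 in edgeR, 5 were lower and 8 higher, where 8.34% and 8.03% of all genes tested were. Between genotypes 4 of the 56 were lower and 9 higher without overlap, where 12.2% and 10.8% of all genes tested did the same. Their median log2 fold change was 0.06. The parental copies were not told apart in these counts, and many of these genes are imprinted in some tissues or transcripts and read from both copies in others.

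Of the genes listed for maternal expression, Cd81, a tetraspanin, was the most abundant at 337 to 386 CPM (log2 fold change -0.00, adjusted p = 0.994). Gatm, an enzyme of creatine synthesis, had 93.2 to 101 CPM in OsxCre and 76.7, 75.7 and 64.1 CPM in OsxCre;Stat3fl/fl, all below OsxCre (log2 fold change -0.42, adjusted p = 0.0760). The receptor tyrosine kinase Axl had 261, 234 and 212 CPM in OsxCre and 286, 355 and 338 CPM in OsxCre;Stat3fl/fl, all above OsxCre (0.47, adjusted p = 0.103). Nap1l4, a histone chaperone, stayed within 145 to 160 CPM (-0.05, adjusted p = 0.796).

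Of the genes listed for paternal expression, Ndn, which encodes necdin, had 185 to 284 CPM in OsxCre and 204 to 228 CPM in OsxCre;Stat3fl/fl (log2 fold change -0.16, adjusted p = 0.644). Casd1, a sialic acid acetyltransferase gene, had 72.4, 72.2 and 77.4 CPM in OsxCre and 58.9, 61.0 and 58.0 CPM in OsxCre;Stat3fl/fl, without overlap (-0.32, adjusted p = 0.0825). Peg10, derived from a retrotransposon and needed in the placenta, had 76.8, 95.6 and 102 CPM and 70.7, 79.1 and 59.0 CPM (-0.40, adjusted p = 0.213), with library 2 of OsxCre;Stat3fl/fl inside the OsxCre range. Gnas, whose row joins paternal, maternal and biallelic transcripts of the locus (0.19, adjusted p = 0.552), Nnat (0.03, adjusted p = 0.980) and the amino acid transporter Slc38a4 (0.11, adjusted p = 0.561) overlapped between genotypes, and Nnat ran from 93.9 to 217 CPM among the libraries.

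**Figure D4:**
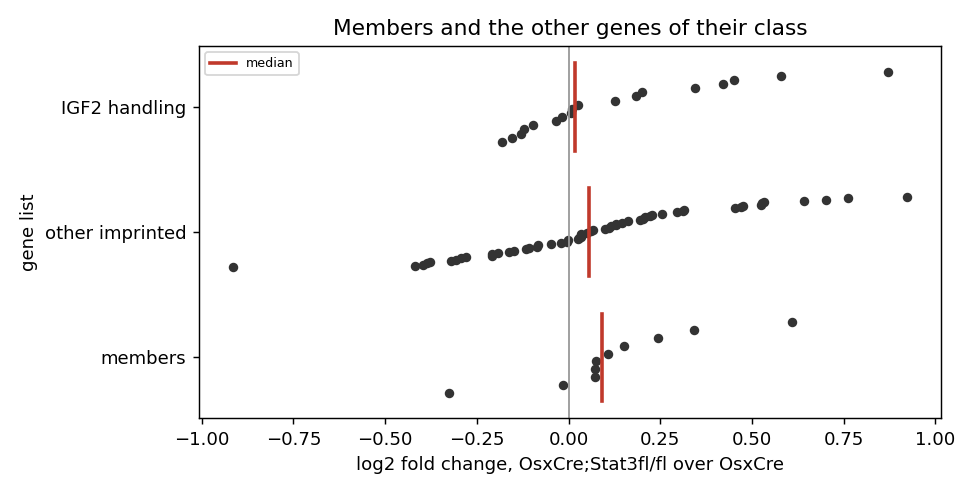
Log2 fold changes, OsxCre;Stat3fl/fl over OsxCre on TMM-scaled libraries, for the 10 members, 56 other imprinted genes and 18 genes that handle IGF2, one point per gene tested and a red line at each median. The medians were 0.09, 0.06 and 0.02, and points lay on both sides of 0 in each list.

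Genes that share an imprinted region with a member were followed to see whether they had like values, and 46 were tested. None passed an adjusted p of 0.05 in edgeR's test or in limma-voom, and DESeq2 called 1 of the 46 higher, against 2.01% of all genes. At an unadjusted p under 0.05 in edgeR, 1 was lower and 5 were higher, where 8.34% and 8.03% of all genes tested were. In the Dlk1 and Meg3 region 7 of 8 neighbours had a positive log2 fold change, where 7687 of all 15600 genes tested did. The median of the 8 was 0.39. Among the 7, Wdr25 held only 7 to 17 counts per library and Dio3 only 6 to 14. Rtl1, also among the 7, overlaps Meg3 in position. There the maternally expressed non-coding RNA Mirg had 6.26, 9.00 and 8.62 CPM in OsxCre and 10.9, 10.8 and 11.1 CPM in OsxCre;Stat3fl/fl (0.45, adjusted p = 0.261), without overlap. Rtl1, a paternally expressed gene needed in placenta and muscle, had 26.7, 24.3 and 39.4 CPM and 41.0, 48.7 and 36.4 CPM (0.48, adjusted p = 0.278), and overlapped. The non-coding RNA Rian, at 22.8 to 28.2 and 21.8 to 34.1 CPM, overlapped too (0.23, adjusted p = 0.578).

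The region of H19, Igf2 and Cdkn1c had 16 neighbours tested, with a median log2 fold change of -0.07. Its most abundant gene was Tnnt3, troponin T of fast muscle and one of the muscle fibre markers above, with 3775, 3816 and 3859 CPM in OsxCre and 5367, 6554 and 4273 CPM in OsxCre;Stat3fl/fl (0.50, adjusted p = 0.180). Tnnt3 thus did not overlap between genotypes, while H19, Igf2 and Cdkn1c in the same region did. Kcnq1, a potassium channel gene, had 3.32, 3.86 and 3.01 CPM in OsxCre and 1.92, 1.71 and 1.75 CPM in OsxCre;Stat3fl/fl (-0.92, adjusted p = 0.121), the largest log2 difference in size among the lower neighbours. Around Grb10 none of the 4 genes tested, among them Ddc, the aromatic amino acid decarboxylase (27.9 to 46.1 CPM, log2 fold change 0.26, adjusted p = 0.442), passed an unadjusted p of 0.05. Around Igf2r none of 8 passed it, and Tcp1, a chaperonin subunit, had 180 to 206 CPM in OsxCre and 214 to 238 CPM in OsxCre;Stat3fl/fl (0.18, adjusted p = 0.341), without overlap.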

How the data were processed

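RNA from the parietal bone of 3 OsxCre and 3 OsxCre;Stat3fl/fl newborns was sequenced from libraries made with a TruSeq RNA kit. The authors deposited, for each library, whole-number counts per gene symbol without normalization. The submitters' processing notes name HISAT2 and GRCm38, whereas the paper describes TopHat and mm9. The counting program, its gene annotation and strand setting are not given in the sources used here, so positions and sequences are those of RefSeq for GRCm38.p6. Transcript lengths came from GENCODE annotation of mm9.

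Genotypes and replicate numbers came from the labels. In R 4.3.3, low counts were removed by filterByExpr (at least 10 counts, total 15), libraries were scaled by TMM and genotypes were compared with the quasi-likelihood test of edgeR 4.0.16, two-sided, adjusted by Benjamini-Hochberg. The standard error is the log2 fold change divided by the square root of F. limma 3.58.1 (voom) and DESeq2 1.42.0, other scalings and filters, a replicate block and leaving out each library were alternatives. Adding microRNA counts to their host genes was chosen after seeing the data. The fits were tested on simulated data. Plots were made with matplotlib 3.10.9.

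The members and lists were chosen with earlier results of these data known. Named genes were the members, Stat3 and genes from each list of other imprinted genes, IGF2 handling genes and neighbours. The rule for a list was the 4 of highest mean CPM, the 2 of smallest p and any with an adjusted p under 0.05. Some neighbours that met it were not described, among them Wars, Begain, Lsp1, Cobl, Fignl1, Ikzf1, Mrpl18 and Acat2. Of marker lists the sum was given. Igf1r, Insr, Igfbp6, Myh3, Myh4, Ibsp, Pax7, Myog, Cd68, Dsp, Krt10, Wdr25, Dio3 and the microRNA rows were named after their values were seen. The lists of mesenchyme, cartilage, endothelium and erythroid markers overlapped between genotypes in their summed CPM. The floor of a library was set at 3 counts, for counting error only.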

Additional observations from a re-analysis of the deposited data

How the results depend on the processing

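Mest had a positive and Plagl1 a negative log2 fold change in every alternative run (0.23 to 0.74 and -0.71 to -0.16). With no scaling for depth the median of all genes tested moved to -0.38, H19 was at -0.31, Igf2r -0.30, Dlk1 -0.14, Meg3 -0.28, Peg3 -0.046, Cdkn1c -0.31 and Grb10 -0.23, 2 members (Igf2 and Plagl1) were lower at an adjusted p under 0.05, 3 lower and 0 higher unadjusted and 4 without overlap, and 5451 genes, 17 other imprinted genes, 8 IGF2 handling genes and 13 neighbours were lower. Library totals gave 114 genes lower, 1 member lower unadjusted, 2 members without overlap and 1 other imprinted gene lower, and library totals without members and mitochondrial genes gave 117, 1, 2 and 1. The upper quartile gave 2 members without overlap. Without the filter there were 178 genes lower and 250 higher, 1 member higher, 1 lower unadjusted and 1 other imprinted gene lower. DESeq2 gave 231 lower and 307 higher, 1 member higher, 1 lower unadjusted, 1 other imprinted gene lower and 1 higher and 1 neighbour higher. The shares of all genes at an unadjusted p and without overlap were computed for the main fit only. Groups of fewer libraries also overlap less easily. The counts of members at an unadjusted p or without overlap in the other runs thus have no such share beside them. Leaving out 1 library left 5 to 36 genes lower and 7 to 67 higher, 0 to 1 members lower and 1 to 2 higher unadjusted, and 1 to 4 members without overlap. It left the log2 fold change of H19 between -0.025 and 0.14, of Igf2 between -0.080 and 0.052, of Igf2r between -0.035 and 0.14, of Meg3 between -0.0077 and 0.23 and of Cdkn1c between -0.062 and 0.17, the values below 0 coming for all but Igf2 from leaving out OsxCre;Stat3fl/fl replicate 2, and those of Igf2 above 0 from leaving out OsxCre replicate 1 (0.022) or OsxCre;Stat3fl/fl replicate 3. The members' mean share of an OsxCre library was 3.60% without mitochondrial counts. With the replicate block, 1 gene was lower and 0 higher at an adjusted p under 0.05, against 75 and 121, and 0 members passed. Same-numbered libraries shared only a number. Correlations were taken on log CPM after the mean of each genotype had been subtracted from each gene. They were -0.10, -0.52 and -0.09 for libraries of the same number and -0.45 to 0.51 for the others. By this measure 0 of 6 correlated best with their own number. Subtracting the means forces such values onto both sides of 0, so they cannot decide whether libraries were paired. Values without scaling for depth keep the lower totals of the OsxCre;Stat3fl/fl libraries. The cause of the moves between runs was not tested.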
